A study of Mus musculus with 16 samples.

Results

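The genes described here act when a cell arrests or dies after damage, and they were followed through all 16 libraries. They were 6 p53 targets (Cdkn1a, Mdm2, Ccng1, Trp53inp1, Bbc3 and Pmaip1) and the Gadd45 family (Gadd45a, Gadd45b and Gadd45g). They were chosen by symbol, as 9 of the 55367 gene names counted, and all 9 were among the 19509 genes that passed the filter on low counts. The libraries are RNA-seq counts from mIMCD3 cells, a line from the inner medullary collecting duct of the mouse, exposed to hyperosmotic stress with or without SFN (sulforaphane), an activator of the transcription factor Nrf2. Wild-type (WT) cells received DMSO, the solvent, or SFN at 10 μM for 5 h, and each of these was sampled without stress (isosmotic), after 1 h and after 6 h of stress. Nrf2-/- cells, all treated with SFN, were sampled without stress and after 1 h. Each of the 8 groups holds 2 libraries, labelled as replicates. The 1 h stress medium had 600 mOsm, and the osmolality behind the 6 h libraries is not given in the sources used here. Nrf2-/- cells were made with lentiviral Cas9 and guide RNA under antibiotic selection. Whether they are a single clone, and whether WT cells carried the same vectors, was not stated, so the deletion and the history of the line cannot be told apart. DMSO-treated Nrf2-/- cells were not analysed here, and every Nrf2-/- library was therefore compared with SFN-treated WT cells.

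As background, p53 is a transcription factor that is kept scarce by Mdm2, which marks it for degradation and is itself a p53 target, so the pair forms a feedback loop. When DNA damage or other stress frees p53, it activates genes for arrest of the cell cycle, repair and apoptosis, and Gadd45 proteins, which respond to many stresses through p53 and other factors, bind PCNA, Cdk1 and the kinase Map3k4. Renal medullary cells live at high osmolality, and salt is known to cause arrest and DNA breaks in cultured cells of this region. The mIMCD3 line comes from a mouse that carries the SV40 early region, whose large T antigen binds p53, and these libraries hold no measure of p53 protein or of its activity.

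Sequence upstream of the start sites is shown because most members are known as p53 targets and SFN acts through Nrf2, so that the letters each factor reads are of interest. RefSeq windows on GRCm38.p6, from 250 bases before to 50 bases after a start site, were read for 7 of the 9 members, and Trp53inp1 and Pmaip1 are named only. The 250 upstream bases of 5 members follow, 5′ to 3′ on the gene's strand, with each match to a p53 half-site (Cdkn1a, Mdm2, Ccng1 and Gadd45a) or to the core of the antioxidant response element that Nrf2 binds (Gadd45g) in capitals. They lie at chr17:29090729-29090978 on the plus strand for Cdkn1a, chr10:117710759-117711008 on the minus strand for Mdm2, chr11:40755287-40755536 on the minus strand for Ccng1, chr6:67037408-67037657 on the minus strand for Gadd45a and chr13:51846425-51846674 on the plus strand for Gadd45g.
Cdkn1a: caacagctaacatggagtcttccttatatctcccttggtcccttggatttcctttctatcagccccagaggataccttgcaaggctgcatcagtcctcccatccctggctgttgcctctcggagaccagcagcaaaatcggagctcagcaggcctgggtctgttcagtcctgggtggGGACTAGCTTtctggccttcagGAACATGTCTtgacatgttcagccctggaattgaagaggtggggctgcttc
Mdm2: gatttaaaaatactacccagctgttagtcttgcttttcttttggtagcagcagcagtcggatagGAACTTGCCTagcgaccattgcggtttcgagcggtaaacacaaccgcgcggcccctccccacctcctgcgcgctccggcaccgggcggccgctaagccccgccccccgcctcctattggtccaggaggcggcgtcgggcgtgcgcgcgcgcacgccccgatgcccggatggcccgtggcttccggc
Ccng1: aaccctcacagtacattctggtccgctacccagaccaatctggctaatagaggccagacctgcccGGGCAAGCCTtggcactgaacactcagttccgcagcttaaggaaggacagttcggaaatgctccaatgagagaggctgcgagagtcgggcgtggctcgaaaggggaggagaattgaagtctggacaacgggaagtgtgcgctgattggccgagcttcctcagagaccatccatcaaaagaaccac
Gadd45a: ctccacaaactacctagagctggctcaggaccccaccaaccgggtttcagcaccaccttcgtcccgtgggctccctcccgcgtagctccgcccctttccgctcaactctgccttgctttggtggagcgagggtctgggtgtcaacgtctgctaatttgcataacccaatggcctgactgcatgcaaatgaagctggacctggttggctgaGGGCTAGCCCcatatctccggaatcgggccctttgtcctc
Gadd45g: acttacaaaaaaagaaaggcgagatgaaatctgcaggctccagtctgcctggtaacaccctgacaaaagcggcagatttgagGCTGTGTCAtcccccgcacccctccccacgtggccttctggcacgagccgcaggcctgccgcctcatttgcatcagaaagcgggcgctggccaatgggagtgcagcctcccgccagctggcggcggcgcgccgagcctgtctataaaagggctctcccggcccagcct
Counting from the start site, the first base of the p53 half-site matches lay at -73 and -51 for Cdkn1a, -186 for Mdm2, -185 for Ccng1 and -40 for Gadd45a. The Gadd45g match lay at -168, and the only other antioxidant core match was at 27 in a second, downstream Cdkn1a window. That window, the 3 windows of Bbc3 and those of Gadd45b and Gadd45g had no p53 half-site match. The shares below are per window, while Cdkn1a and Bbc3 had more than 1 window. The p53 half-site was searched by its consensus of 10 bases and occurred in 8.36% of all 32851 RefSeq windows, and the antioxidant core TGACNNNGC in 12.4%, both strands read. AP-1 sites (TGANTCA, 7.81% of windows), CRE sites (TGACGTCA, 1.79%), NFAT5 osmotic response elements (4.96%) and CArG boxes (1.63%) had no match in any member's window. An AP-1 match followed by GC can also be a match to the antioxidant core. These matches are letters only and were not tested for binding.

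Total counts per library lay between 34484296 and 50774875. Levels are given as CPM, the counts scaled to the TMM-normalized library size, replicate 1 first. Each test was a contrast in edgeR's quasi-likelihood fit of all 16 libraries, with Benjamini-Hochberg adjustment over the 19509 genes, and a gene is called at an adjusted p under 0.05. The spread between the 2 libraries of a group, as the biological coefficient of variation, was 0.0395 to 0.128 in 7 groups and 0.348 in the 1 h Nrf2-/- group. The groups share 1 estimate of the spread per gene, and the counts of calls within WT cells are also given from a fit of the 12 WT libraries. As a check of the labels, Nfe2l2, which encodes Nrf2, was at 11.1 and 11.6 CPM in isosmotic and 11.02 and 11.1 CPM in 1 h Nrf2-/- libraries, against 66.9 and 78.00 CPM in isosmotic SFN-treated WT cells. Of 15 listed collecting duct genes, 8 were above 10 CPM in every library, keratins 7, 8 and 18 and Cdh1 among them, while 5 stayed under 1 CPM in every library, the water channel genes Aqp2 (at most 0.323 CPM), Aqp3 and Aqp4, the vasopressin receptor gene Avpr2 and the urea transporter gene Slc14a2. Of 16 markers of other kidney, vascular and immune cells, 9 stayed under 1 CPM in every library, and the highest value of any was 13.1 CPM, for Lrp2 in 1 library. In bulk RNA, fewer cells that express a gene and less RNA per cell cannot be told apart, and a CPM is a share of the library, not an amount per cell.

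The 9 genes lie on 8 chromosomes in GENCODE M21 (GRCm38), Cdkn1a at chr17:29090976-29100727, Mdm2 at chr10:117688875-117710758, Ccng1 at chr11:40748552-40755311, Trp53inp1 at chr4:11156431-11174379 and Bbc3 at chr7:16308393-16318205. The Gadd45 genes lie apart from each other, Gadd45a at chr6:67035096-67037457, Gadd45b at chr10:80930073-80932204 and Gadd45g at chr13:51846678-51848468. Counts were made per gene. Per kilobase of exon the levels spanned a wide range. In isosmotic DMSO-treated cells, the mean level was 98.98 CPM per kb for Gadd45b, 79.9 for Gadd45g and 41.8 for Pmaip1. Mdm2, Ccng1 and Cdkn1a followed at 28.1, 25.3 and 24.5 CPM per kb, and Gadd45a was at 12.5. Bbc3 at 6.07 and Trp53inp1 at 0.801 CPM per kb were the lowest. Trp53 itself, which encodes p53, was at 76.9 CPM per kb. After 6 h of stress with DMSO the order had changed, with Gadd45b at 69.6 and Pmaip1 at 67.1 CPM per kb, Cdkn1a at 32.4 and Gadd45g down to 22.5. Across the 8 group means, Gadd45g varied most, with a ratio of highest to lowest of 6.04, and Mdm2 least, at 1.49. An antisense gene overlaps 337 bases of Gadd45a exons and another 273 bases of Cdkn1a exons. The strand setting of the counting is not given in the sources used here. The first had 13 to 123 counts where Gadd45a had at least 440, and the second is not counted in the files by that name.

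**Figure D1:**
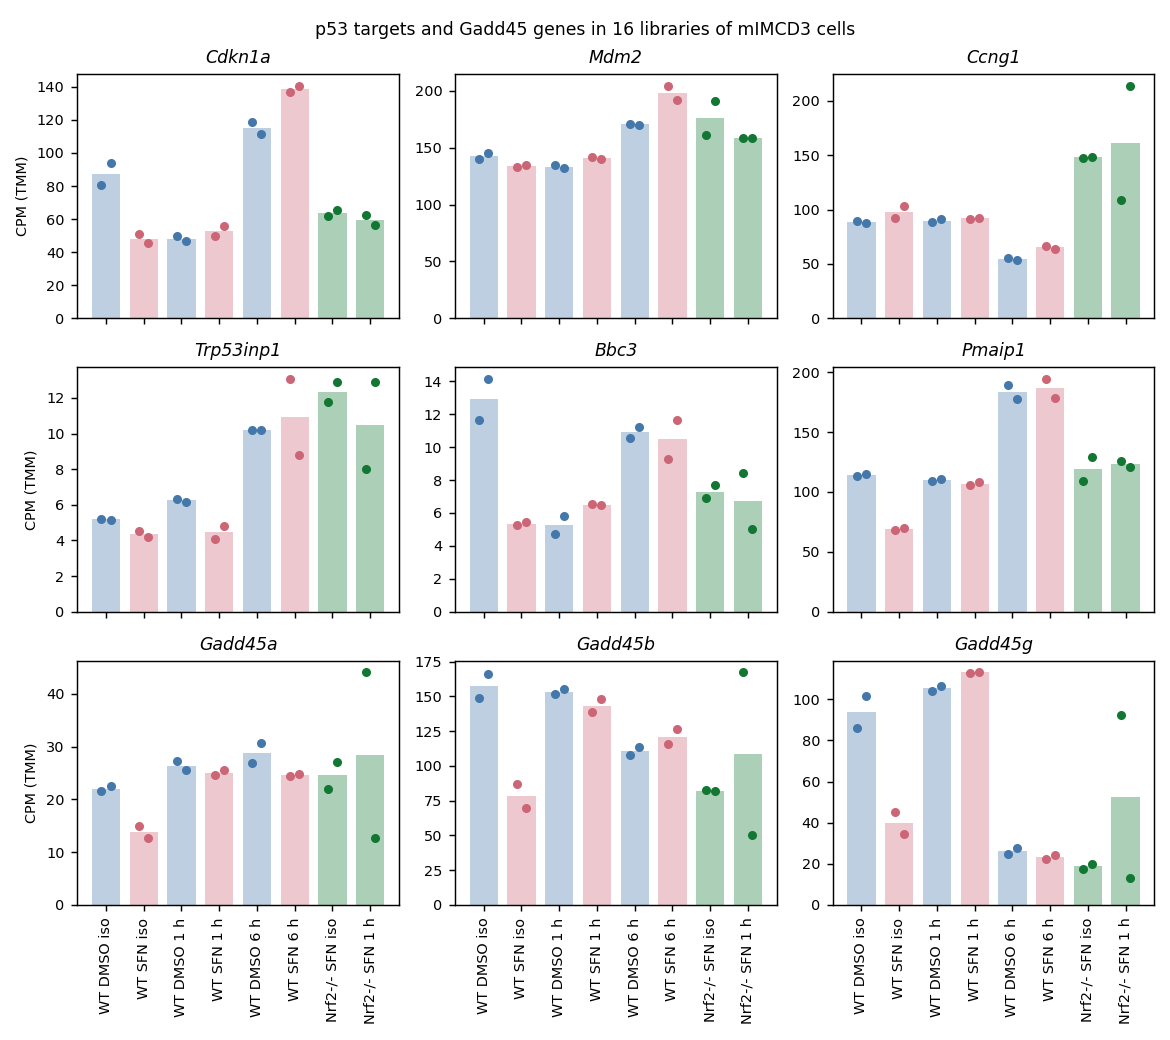
Each panel plots 1 gene, with the 8 groups on the x axis and TMM-normalized CPM on the y axis, bars at the group mean (n = 2) and 1 point per library. Cdkn1a, Bbc3 and Pmaip1 were lower in isosmotic SFN than in isosmotic DMSO libraries, and the 2 libraries of the 1 h Nrf2-/- group lay far apart for Ccng1 and the Gadd45 genes.

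The members moved to a different extent in each setting. SFN without stress lowered 3 of the 9 (Bbc3, Cdkn1a and Pmaip1), where 1.76% of all genes tested were lowered, and it raised none. Stress for 1 h lowered 2 in DMSO-treated cells (Bbc3 and Cdkn1a, beside 4.11% of all genes), and in SFN-treated cells it raised 1 (Pmaip1, beside 5.94%). Stress for 6 h raised 4 (beside 23.9%) and lowered 2 (beside 22%) with DMSO, and it raised 5 (beside 24.7%) and lowered 1 (beside 22.9%) with SFN. Between 1 h and 6 h in DMSO-treated cells 5 rose (beside 20.4%) and 2 fell (beside 22%). With any 1 of those 4 libraries left out, fewer members and fewer of all genes were called. Under stress SFN changed none of the 9 in edgeR's test at 1 h, with 0.0923% of all genes called. At an unadjusted p under 0.05 there was 1 of the 9, beside 669 of the 19509 genes. At 6 h SFN changed none either, with 0.041% called, and 2 of the 9 were at an unadjusted p under 0.05, beside 718 of the 19509 genes. DESeq2 called 0 members at 1 h and at 6 h, beside 0.21% and 0.108% of all genes. In Nrf2-/- against WT cells, 5 were higher without stress (beside 15.7% of all genes) and 2 after 1 h (beside 15.3%). At 6 h and between genotypes large shares of all genes moved, so the members' counts there are read against those shares.

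In the fit of the 12 WT libraries the Gadd45 genes joined these counts. SFN without stress then lowered 6 members, where 6.88% of all genes were lowered. Stress for 1 h lowered 2 with DMSO (beside 8.53%) and raised 4 with SFN (beside 10.5%). Stress for 6 h raised 5 (beside 30.5%) and lowered 3 (beside 27.1%) with DMSO, and raised 7 (beside 31.8%) and lowered 2 (beside 27.9%) with SFN. Between 1 h and 6 h with DMSO 5 rose (beside 26.5%) and 3 fell (beside 27.9%). SFN under stress again changed 0 members at 1 h (0.533% of all genes called) and at 6 h (0.243% called). The stress and isosmotic SFN comparisons share the isosmotic libraries, so their values are set side by side and are not independent of each other.

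**Figure D2:**
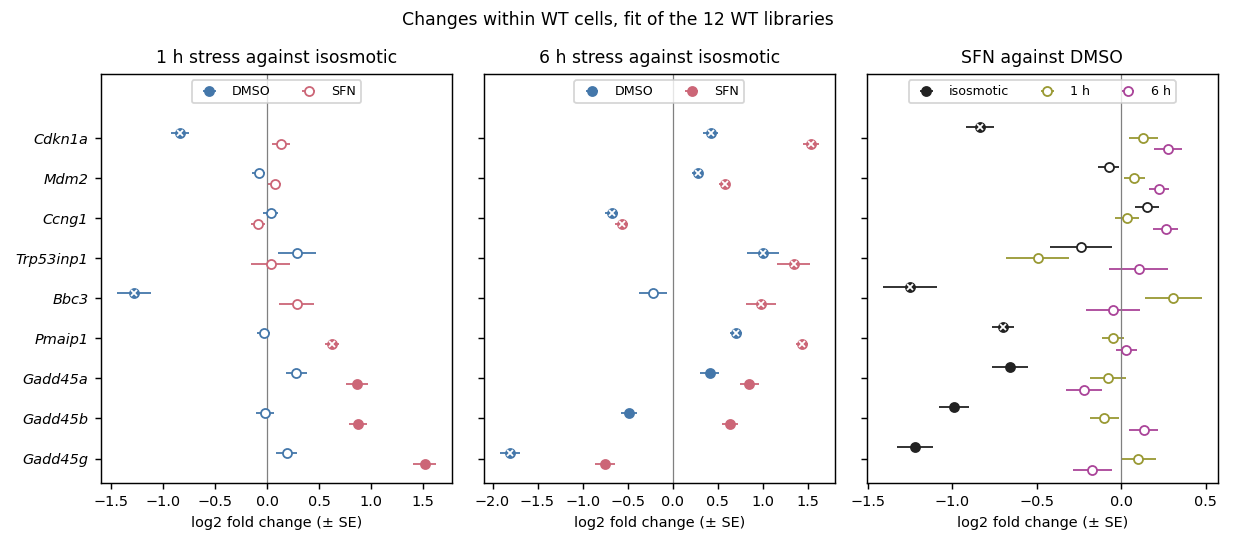
Log2 fold changes (x axis) of the 9 genes (y axis) with their standard errors, from the fit of the 12 WT libraries, for 1 h stress, 6 h stress and SFN. Filled points were called in that fit, and a white cross marks those also called in the fit of all 16 libraries. In the right panel every called point belongs to isosmotic cells, and in the left panel Cdkn1a and Bbc3 lie below 0 with DMSO only.

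Arrest genes come first. Cdkn1a encodes p21, an inhibitor of cyclin-dependent kinases and the classic p53 target for arrest in G1. In WT cells without stress it was at 80.4 and 93.9 CPM with DMSO and 50.8 and 45.6 CPM with SFN. After 1 h of stress it was at 49.7 and 46.7 CPM with DMSO and 49.96 and 55.9 CPM with SFN, and after 6 h at 119 and 111 CPM (DMSO) against 137 and 141 CPM (SFN). The isosmotic DMSO libraries thus lay above all isosmotic SFN and all 1 h libraries and below all 6 h libraries, with no overlap. SFN without stress lowered Cdkn1a by a log2 fold change of -0.85 ± 0.11 (SE) (edgeR adjusted p = 0.000321). Stress for 1 h lowered it in DMSO-treated cells by -0.85 ± 0.11 (SE) (adjusted p = 0.000149). In cells already low with SFN, the 1 h log2 fold change was 0.14 ± 0.11 (SE) (edgeR adjusted p = 0.553). At 6 h it rose by 0.40 ± 0.11 (SE) with DMSO (adjusted p = 0.00658) and by 1.52 ± 0.11 (SE) with SFN (adjusted p = 6.61e-08), each against its own isosmotic libraries. The 6 h rise with DMSO was not called without isosmotic DMSO replicate 1 (edgeR adjusted p = 0.102) or without 6 h DMSO replicate 1 (adjusted p = 0.0663).

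Ccng1, which encodes cyclin G1, a p53 target that recruits a phosphatase to Mdm2, was not called with SFN or at 1 h. It was at 89.7 and 87.9 CPM with DMSO and 92.2 and 103 CPM with SFN without stress, and at 88.1 and 91.4 CPM (DMSO) against 91.7 and 92.3 CPM (SFN) after 1 h. After 6 h it was at 55.3 and 54.03 CPM with DMSO and 66.9 and 63.9 CPM with SFN, below every earlier WT library. The 6 h log2 fold change was -0.70 ± 0.20 (SE) with DMSO (edgeR adjusted p = 0.0117) and -0.58 ± 0.20 (SE) with SFN (adjusted p = 0.0303). Its fall with SFN was called in the fit of all 16 libraries, but not when any 1 of the 4 libraries compared was left out (adjusted p from 0.0527 to 0.141), nor with RLE size factors, DESeq2 or at least 10 counts in every library. With DMSO the call was lost without 6 h replicate 1 (edgeR adjusted p = 0.0546), 6 h replicate 2 (0.0631) or isosmotic replicate 1 (0.0502). In the fit of the 12 WT libraries the adjusted p-values were 9.45e-08 and 8.85e-07.

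Mdm2 and Trp53inp1 act back on p53, as its ubiquitin ligase and as a nuclear cofactor that promotes its phosphorylation. Mdm2 was at 140.4 and 145 CPM with DMSO and 133 and 134 CPM with SFN without stress, and at 135 and 132 CPM (DMSO) against 142 and 140.2 CPM (SFN) after 1 h. After 6 h it reached 171 and 170.1 CPM with DMSO and 205 and 192 CPM with SFN, so the 6 h libraries lay above all other WT libraries. The 6 h log2 fold change was 0.26 ± 0.093 (SE) with DMSO (edgeR adjusted p = 0.0352) and 0.57 ± 0.093 (SE) with SFN (adjusted p = 0.000165). The DMSO call was lost when any 1 of its 4 libraries was left out (edgeR adjusted p from 0.105 to 0.171) and without a filter on low counts. Trp53inp1, the least abundant member per kb, was at 5.22 and 5.15 CPM with DMSO and 4.505 and 4.19 CPM with SFN without stress, at 6.34 and 6.17 CPM (DMSO) against 4.07 and 4.82 CPM (SFN) after 1 h, and at 10.2 and 10.2 CPM (DMSO) against 13.1 and 8.82 CPM (SFN) after 6 h. The 6 h libraries were again the highest of the WT cells in both treatments. It rose at 6 h by 0.98 ± 0.22 (SE) with DMSO (edgeR adjusted p = 0.00247) and by 1.33 ± 0.23 (SE) with SFN (adjusted p = 0.000230). Neither gene was called with SFN without stress, where the log2 fold change was -0.093 ± 0.093 (SE) for Mdm2 and -0.26 ± 0.23 (SE) for Trp53inp1. At 1 h, Mdm2 differed from isosmotic cells by -0.10 with DMSO and 0.074 with SFN on the log2 scale, and neither was called.

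The apoptosis genes were Bbc3 (PUMA) and Pmaip1 (NOXA), both BH3-only proteins that neutralise anti-apoptotic members of the Bcl-2 family. Bbc3 was at 11.6 and 14.1 CPM with DMSO and 5.26 and 5.43 CPM with SFN without stress. After 1 h it was at 4.71 and 5.803 CPM with DMSO and 6.55 and 6.47 CPM with SFN, and after 6 h at 10.5 and 11.2 CPM (DMSO) against 9.31 and 11.7 CPM (SFN). As for Cdkn1a, both isosmotic DMSO libraries lay above all isosmotic SFN and 1 h libraries, without overlap. SFN without stress lowered Bbc3 by a log2 fold change of -1.27 ± 0.22 (SE) (edgeR adjusted p = 0.00434), and 1 h of stress with DMSO lowered it by -1.30 ± 0.22 (SE) (adjusted p = 0.00147). The SFN call was lost without isosmotic DMSO replicate 2 (edgeR adjusted p = 0.0710), SFN replicate 1 (0.0544) or SFN replicate 2 (0.0604). At 6 h Bbc3 was again near its isosmotic DMSO level, with a log2 fold change of -0.24 ± 0.21 (SE) (adjusted p = 0.379), after a rise of 1.05 from 1 h (edgeR adjusted p = 0.00129). With SFN it rose by 0.97 ± 0.22 (SE) between isosmotic and 6 h libraries (adjusted p = 0.00211).

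Pmaip1 followed another course. It was at 113 and 115 CPM with DMSO and 68.5 and 70.1 CPM with SFN without stress. After 1 h it was at 109 and 111 CPM with DMSO and 106 and 108 CPM with SFN, and after 6 h at 189 and 177 CPM (DMSO) against 194 and 179 CPM (SFN). The isosmotic SFN pair was the lowest of all 8 groups, and the 6 h libraries were the highest. SFN without stress lowered it by -0.72 ± 0.10 (SE) on the log2 scale (edgeR adjusted p = 0.000559). In contrast with the calls for Cdkn1a and Bbc3, 1 h of stress with DMSO was not called, at -0.054 ± 0.10 (SE), while with SFN it rose by 0.62 ± 0.10 (SE) (adjusted p = 0.000951). At 6 h the rise was 0.68 ± 0.10 (SE) with DMSO (edgeR adjusted p = 4.57e-05) and 1.43 ± 0.10 (SE) with SFN (adjusted p = 4.29e-08). These 4 Pmaip1 calls were kept with each library left out in turn.

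Gadd45 proteins are small acidic stress sensors without enzymatic activity of their own. With SFN and no stress, all 3 genes were lower in both SFN libraries than in both DMSO libraries. Gadd45a was at 21.6 and 22.4 CPM with DMSO and 14.9 and 12.7 CPM with SFN, Gadd45b at 149 and 166 CPM (DMSO) against 86.7 and 69.6 CPM (SFN), and Gadd45g at 86.05 and 101 CPM (DMSO) against 45.2 and 34.3 CPM (SFN). In the fit of all 16 libraries none of these was called (edgeR adjusted p = 0.434, 0.232 and 0.356). With the 12 WT libraries the log2 fold changes were -0.66 ± 0.11 (SE) for Gadd45a, -0.99 ± 0.088 (SE) for Gadd45b and -1.22 ± 0.11 (SE) for Gadd45g, and all 3 were called (edgeR adjusted p = 0.000277, 1.20e-07 and 2.34e-07). The estimate of Gadd45g was -1.24 with all 16 libraries, and its standard error went from 0.59 to 0.11.

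After 1 h of stress the 3 genes were close to each other in the DMSO and SFN libraries. Gadd45a was at 27.2 and 25.6 CPM with DMSO and 24.6 and 25.5 CPM with SFN, Gadd45b at 152 and 155 CPM (DMSO) against 139 and 148 CPM (SFN), and Gadd45g at 104 and 107 CPM (DMSO) against 113 and 113 CPM (SFN). With DMSO no 1 h change was called in either fit, and the log2 fold changes in the 12 WT libraries were 0.28, -0.017 and 0.19. With SFN the log2 fold changes were 0.86 ± 0.11 (SE), 0.87 ± 0.088 (SE) and 1.51 ± 0.11 (SE), called in the 12 WT libraries (edgeR adjusted p = 9.19e-06, 5.90e-07 and 1.64e-08) and not in all 16 (adjusted p = 0.216, 0.212 and 0.164).

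At 6 h the family members parted. Gadd45g was at 24.9 and 27.8 CPM with DMSO and 22.4 and 24.3 CPM with SFN, below all earlier WT libraries. Gadd45b was at 108 and 113 CPM (DMSO) against 115 and 126 CPM (SFN), and Gadd45a at 26.9 and 30.7 CPM (DMSO) against 24.4 and 24.9 CPM (SFN). Against isosmotic DMSO libraries, Gadd45g fell by a log2 fold change of -1.83 ± 0.61 (SE) (edgeR adjusted p = 0.0306 with all 16 libraries, and 1.33e-10 with the 12 WT libraries). With all 16 libraries this call was lost when any 1 of the 4 libraries compared was left out, with adjusted p-values from 0.0770 to 0.153. In the 12 WT libraries Gadd45b was lower by -0.48 and Gadd45a higher by 0.41, both called there (edgeR adjusted p = 7.77e-05 and 0.00227) and not with all 16 (adjusted p = 0.310 and 0.440). Measured from the lower isosmotic SFN libraries, Gadd45b had the opposite sign at 6 h, 0.64 (adjusted p = 3.02e-06 with the 12 WT libraries). Gadd45g with SFN was at -0.75 and Gadd45a at 0.85 in that fit. No test of the differences among the 3 genes was made.

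Whether the stress response differed between SFN- and DMSO-treated WT cells was tested as a difference of the 2 log2 fold changes. At 1 h it was called for Bbc3, Cdkn1a and Pmaip1, all 3 more positive with SFN, beside 0.487% of all genes. The difference was 1.58 ± 0.31 (SE) for Bbc3 (edgeR adjusted p = 0.0337), 0.99 ± 0.15 (SE) for Cdkn1a (adjusted p = 0.00529) and 0.68 ± 0.14 (SE) for Pmaip1 (adjusted p = 0.0382). At 6 h it was called for Cdkn1a, 1.12 ± 0.15 (SE) (edgeR adjusted p = 0.00136), and Pmaip1, 0.75 ± 0.14 (SE) (adjusted p = 0.0154), both more positive with SFN, beside 0.595% of all genes. Of the 3 settings in which SFN was set against DMSO, these genes were called in isosmotic cells only, and both time points share the isosmotic libraries. The 1 h calls of Bbc3 and Pmaip1 and the 6 h call of Pmaip1 were lost when any 1 of the 8 libraries in the contrast was left out, with adjusted p up to 0.241, 0.254 and 0.157. That of Cdkn1a at 1 h was lost without 1 h DMSO replicate 2 (edgeR adjusted p = 0.0580), 1 h SFN replicate 2 (0.0557) or isosmotic SFN replicate 2 (0.0509), and that at 6 h was kept throughout. In the fit of the 12 WT libraries 6 members were more positive with SFN by the test at 1 h (beside 1.92% of all genes) and 5 at 6 h (beside 2.19%). The Gadd45 differences at 1 h there were 0.58 for Gadd45a, 0.89 for Gadd45b and 1.32 for Gadd45g. The summed level of the 15 collecting duct genes also set the isosmotic SFN pair apart, at 1899 to 2088 CPM against 2639.6 to 2965 CPM in isosmotic DMSO libraries, and its part in these results was not tested.

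Loss of Nrf2 was read in SFN-treated cells. Without stress, the fit of all 16 libraries called 5 p53 targets higher in Nrf2-/- than in WT cells (beside 15.7% of all genes). It called no member lower (beside 18.4%). Trp53inp1 was at 11.7 and 12.9 CPM against 4.505 and 4.19 CPM in WT, a log2 fold change of 1.51 ± 0.23 (SE) (edgeR adjusted p = 0.000117). Pmaip1 was at 109 and 129 against 68.5 and 70.1 CPM, 0.79 ± 0.10 (SE) (adjusted p = 1.69e-05). Both pairs were well apart from WT. Ccng1 was at 148 and 149 against 92.2 and 103 CPM, 0.60 ± 0.20 (SE) (edgeR adjusted p = 0.0326). For Cdkn1a the values were 62.2 and 65.6 against 50.8 and 45.6 CPM, 0.41 ± 0.11 (SE) (adjusted p = 0.00852), and for Mdm2 161 and 191 against 133 and 134 CPM, 0.39 ± 0.093 (SE) (adjusted p = 0.00410). In none of these did the libraries of the genotypes overlap. Leaving out 1 of the 4 libraries ended the Ccng1 call each time (edgeR adjusted p from 0.0756 to 0.187), the Cdkn1a call without Nrf2-/- replicate 2 (0.0731) or WT replicate 2 (0.0973), and the Mdm2 call without Nrf2-/- replicate 2 (0.0900). The isosmotic WT SFN pair was itself the lowest or next to lowest of all groups for Cdkn1a, Mdm2, Trp53inp1, Bbc3 and Pmaip1, and Cdkn1a in Nrf2-/- cells was below both isosmotic DMSO-treated WT libraries. Of the 12 collecting duct genes tested, 4 were called higher (beside 15.7% of all genes) and 3 lower (beside 18.4%) in Nrf2-/- cells, Epcam (2.54) and Cdh16 (-3.29) among them. The part of this in the member results was not tested.

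The Gadd45 genes split by genotype without stress. Gadd45a was at 21.96 and 27.1 CPM in Nrf2-/- and 14.9 and 12.7 CPM in WT, Gadd45b at 82.3 and 81.8 CPM (Nrf2-/-) against 86.7 and 69.6 CPM (WT), and Gadd45g at 17.5 and 20.01 CPM (Nrf2-/-) against 45.2 and 34.3 CPM (WT). Gadd45a was higher and Gadd45g lower in both Nrf2-/- libraries, while those of Gadd45b lay between the WT libraries. With all 16 libraries none was called (edgeR adjusted p = 0.120, 0.943 and 0.204). Without the 2 Nrf2-/- 1 h libraries, a choice made after the values were seen, the log2 fold change was 0.85 ± 0.12 (SE) for Gadd45a (edgeR adjusted p = 1.13e-06) and -1.06 ± 0.11 (SE) for Gadd45g (adjusted p = 3.74e-08). That fit called 8 members, Bbc3 among them (0.46, adjusted p = 0.0269), beside 46.4% of all genes.

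After 1 h of stress the 2 Nrf2-/- libraries disagreed on several members. Gadd45g was at 92.2 and 13.1 CPM in replicates 1 and 2, Gadd45b at 167 and 50.1 CPM and Gadd45a at 44.1 and 12.7 CPM, while Ccng1 was at 109 and 214 CPM. For each Gadd45 gene replicate 1 was the higher library, and for Ccng1 replicate 2 was. The other members were closer, with Cdkn1a at 62.3 and 56.6, Pmaip1 at 125 and 121, Mdm2 at 159 and 158, Bbc3 at 8.41 and 5.05 and Trp53inp1 at 8.01 and 12.9 CPM. Against 1 h SFN-treated WT cells, Trp53inp1 (1.23 ± 0.23 (SE), edgeR adjusted p = 0.000757) and Ccng1 (0.81 ± 0.20 (SE), adjusted p = 0.00716) were called, both higher. Ccng1 was at 1.23 without replicate 1 and at 0.24 without replicate 2 of the Nrf2-/- libraries. Its call was lost without 1 h SFN-treated WT replicate 1 (adjusted p = 0.0516), and neither gene was called with only the 4 libraries compared. Trp53inp1 was at 1.55 and 0.85 without replicate 1 and 2.

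The 1 h stress response of the Gadd45 genes in Nrf2-/- cells changed sign with the library that was left out. With both libraries it was 1.49 ± 0.61 (SE) for Gadd45g, 0.41 ± 0.38 (SE) for Gadd45b and 0.21 ± 0.38 (SE) for Gadd45a. None of the 9 members was called by edgeR, beside 7.17% of all genes, or by DESeq2, beside 10.3%. At an unadjusted p under 0.05 edgeR had 1 member, beside 3987 of the 19509 genes. Without replicate 2 the values were 2.30, 1.03 and 0.85 and 5 members were called, beside 21.6% of all genes. Without replicate 1 they were -0.52, -0.72 and -0.96 and 4 were called, beside 23.9%. In these fits a lone library is assumed to vary like the other groups. The difference between the stress responses of Nrf2-/- and WT cells was called by edgeR for 0 members, beside 0.123% of all genes. For 1 member that difference was at an unadjusted p under 0.05, beside 1433 of the 19509 genes. DESeq2 called the difference for 1 member, Pmaip1 (DESeq2 adjusted p = 0.00638), beside 0.646% of all genes. For Pmaip1, which rose at 1 h in SFN-treated WT cells and was at 0.042 ± 0.10 (SE) in Nrf2-/- cells, that difference was -0.58 ± 0.14 (SE) (edgeR adjusted p = 0.151). It was -0.61 without replicate 1 and -0.55 without replicate 2.

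**Figure D3:**
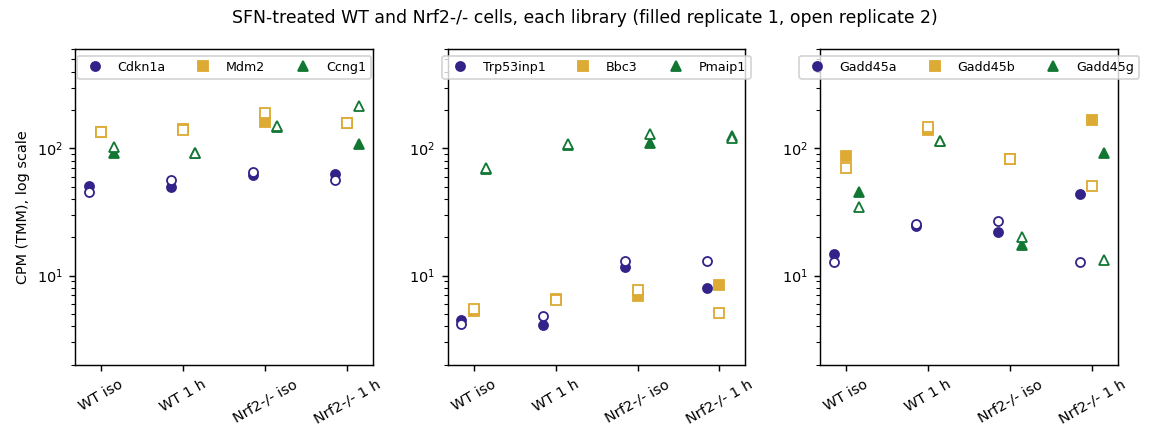
TMM-normalized CPM on a log axis for the 9 genes in SFN-treated WT and Nrf2-/- cells without stress (iso) and after 1 h, with replicate 1 filled and replicate 2 open. The 2 libraries of the 1 h Nrf2-/- group agree closely for Mdm2 and Pmaip1, and for Gadd45g they lie at 92.2 and 13.1 CPM.

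The order of the group means shows which groups set each range. For Cdkn1a the order fell from 6 h SFN (138.7 ± 2.84 CPM, SD, n = 2) through 6 h DMSO, isosmotic DMSO, isosmotic Nrf2-/-, 1 h Nrf2-/-, 1 h SFN and 1 h DMSO to isosmotic SFN (48.2 ± 3.64), and libraries of neighbours overlapped between the 2 Nrf2-/- groups and between the last pair. The range of Bbc3 ran from isosmotic DMSO (12.9 ± 1.77 CPM) through 6 h DMSO, 6 h SFN, isosmotic Nrf2-/-, 1 h Nrf2-/-, 1 h SFN and isosmotic SFN to 1 h DMSO (5.25 ± 0.775). Its neighbours were apart at 3 steps, between isosmotic and 6 h DMSO, between 6 h SFN and isosmotic Nrf2-/-, and between 1 h and isosmotic SFN. Pmaip1 ran from 6 h SFN (187 ± 11.0 CPM) through 6 h DMSO, 1 h Nrf2-/-, isosmotic Nrf2-/-, isosmotic DMSO, 1 h DMSO and 1 h SFN to isosmotic SFN (69.3 ± 1.15), with overlaps between the 6 h groups and from 1 h Nrf2-/- to isosmotic DMSO. Mdm2 was highest at 6 h with SFN (198 ± 8.70 CPM) and lowest at 1 h with DMSO (133 ± 1.95), and Ccng1 highest in 1 h Nrf2-/- cells (161 ± 74.1) and lowest at 6 h with DMSO (54.7 ± 0.904). Trp53inp1 had isosmotic Nrf2-/-, 6 h SFN, 1 h Nrf2-/- and 6 h DMSO at the top, each overlapping the next (12.3 ± 0.830 to 10.2 ± 0.00566 CPM), apart from the other 4 groups below.

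Among the Gadd45 genes, Gadd45g ran from 1 h SFN (113 ± 0.124 CPM, SD, n = 2) and 1 h DMSO through isosmotic DMSO, 1 h Nrf2-/-, isosmotic SFN, 6 h DMSO and 6 h SFN to isosmotic Nrf2-/- (18.7 ± 1.80), and only the neighbours of 1 h Nrf2-/- overlapped with it. Gadd45b was highest without stress with DMSO (157 ± 12.2 CPM) and lowest without stress with SFN (78.2 ± 12.03). Gadd45a ranged from 28.8 ± 2.73 CPM at 6 h with DMSO to 13.8 ± 1.55 CPM without stress with SFN, and all its neighbours in the order overlapped except 1 h DMSO with 1 h SFN and isosmotic DMSO with isosmotic SFN.

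The wider p53 program was read from a list of 41 other p53 targets, 40 of which were tested. With SFN and no stress, 2 rose (beside 1.09% of all genes) and 4 fell (beside 1.76%), with a median log2 fold change of -0.013 over the list and 0 over all genes. Those that fell were the antiproliferative gene Btg2 (-1.78), the cytokine Lif (-1.73), the kinase Plk2 (-0.89) and the secreted factor Gdf15 (-0.87), with edgeR adjusted p from 6.15e-06 to 0.0480. Btg2 went from 123 and 124 CPM with DMSO to 34.8 and 37.1 CPM with SFN. Those that rose were Sesn2 (1.08), which encodes a stress-induced inhibitor of mTORC1, and the DNA polymerase gene Polk (0.59). In the fit of the 12 WT libraries 6 rose (beside 8.28%) and 7 fell (beside 6.88%). After 1 h of stress with DMSO, 2 rose (beside 7.1% of all genes) and 4 fell (beside 4.11%), with a median of -0.051 beside 0.0016 over all genes. The falls were Btg2 (-2.83), Lif (-1.85), Gdf15 (-1.03) and Plk3 (-0.64), and the rises Polk (0.60) and the apoptosome gene Apaf1 (0.57). The 12 WT libraries gave 4 rises (beside 14.3%) and 8 falls (beside 8.53%). With any 1 of the 4 libraries compared left out, fewer of the 40 and fewer of all genes were called. With SFN, 2 rose (beside 5.94%) and 2 fell (beside 3.58%) at 1 h, Plk2 (0.66) and Tigar (0.43) against Btg2 (-1.04) and Sesn2 (-0.88), and in the 12 WT libraries 7 rose (beside 10.5%) and 3 fell (beside 7.81%).

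At 6 h the list moved in both directions. With DMSO 8 rose (beside 23.9% of all genes) and 13 fell (beside 22%), with a median of -0.30 beside 0.048 over all genes. With SFN 9 rose (beside 24.7%) and 14 fell (beside 22.9%), with a median of -0.14 beside 0.085. In the 12 WT libraries 10 rose and 17 fell with DMSO (beside 30.5% and 27.1%), and 12 rose and 17 fell with SFN (beside 31.8% and 27.9%). The largest rises with DMSO were Ddit4 (3.12), an inhibitor of mTORC1, the receptor gene Epha2 (1.54), Kitl (1.43) and the thiamine transporter gene Slc19a2 (0.78). The largest falls were Gdf15 (-2.31), Btg2 (-1.78), Psrc1 (-1.23) and Ak1 (-0.95), with edgeR adjusted p up to 0.0254. Sesn2 rose by 0.40 with DMSO and fell by 0.73 with SFN on the log2 scale. With SFN against DMSO under stress, edgeR called 0 of the 40 at 1 h (beside 0.0923% of all genes) and 0 at 6 h (beside 0.041%). DESeq2 also called 0 at both times, beside 0.21% and 0.108%. At an unadjusted p under 0.05 edgeR had 7 of the 40 at 1 h, beside 669 of the 19509 genes. At 6 h it had 1 of the 40, beside 718 of the 19509. The median of the 40 at 1 h was 0.087. With the 12 WT libraries 3 of the 40 were called higher with SFN at 1 h (beside 0.533% of all genes called). At 6 h 0 were called there (beside 0.243%). In that fit 7 were at an unadjusted p under 0.05 at 6 h, and the share of all genes at that threshold was not counted. With the compared groups only, 6 were called at 1 h (beside 4.95% of all genes). In Nrf2-/- against WT cells without stress, 10 were higher (beside 15.7% of all genes) and 13 lower (beside 18.4%), with a median of -0.13 beside -0.00091. Of the listed TNF receptor family genes, Eda2r was higher (4.81) and Fas lower (-3.83), and Tnfrsf10b, named after its values were seen, was lower by less (-0.25, edgeR adjusted p = 0.0453). Eda2r was at 208 and 250 counts in Nrf2-/- and 3 and 18 counts in WT libraries, and Fas at 4 and 2 counts (Nrf2-/-) against 49 and 62 counts (WT). Perp (1.69), Ddit4 (1.65) and Ak1 (1.25) were also higher, and Sulf2 (-2.98), Steap3 (-2.96) and Plxnb2 (-1.39) lower. Sulf2 was also scarce, at 4 and 0 counts in Nrf2-/- and 28 and 11 counts in WT libraries, as was Steap3, at 8 and 12 counts (Nrf2-/-) against 72 and 129 counts (WT). After 1 h of stress, 11 of the 40 were higher and 13 lower in Nrf2-/- than in WT cells, beside 31.5% of all genes called in either direction.

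**Figure D4:**
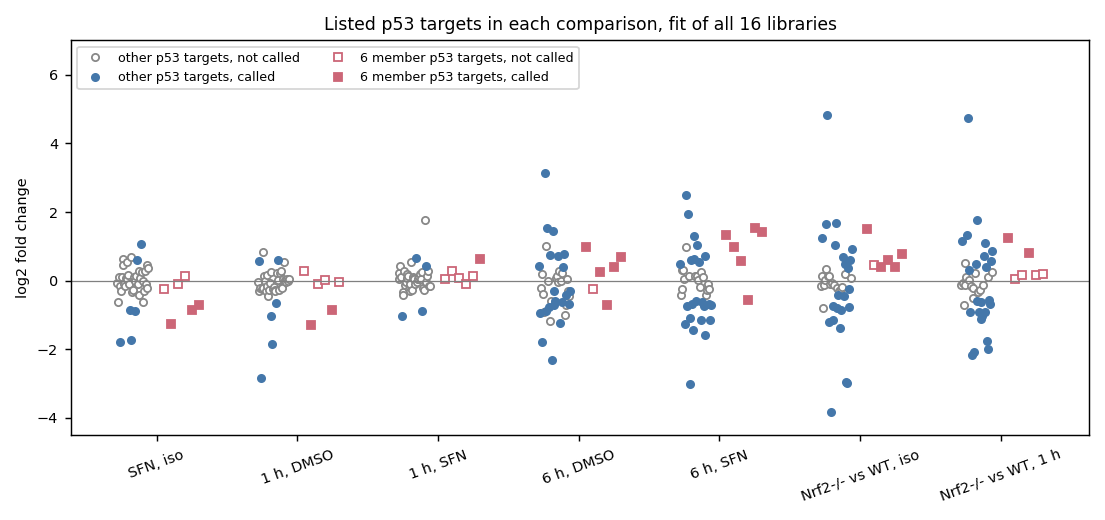
Log2 fold changes (y axis) of 40 other p53 targets (circles) and the 6 member p53 targets (squares) in 7 comparisons (x axis), filled where called in the fit of all 16 libraries. At 6 h and between genotypes, called circles lie on both sides of 0, and 4 of the 6 circles called with SFN without stress lie below it.

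Genes that act on p53 were followed as a list of 14. Trp53 was at 297 and 325 CPM without stress with DMSO and 313 and 319 CPM with SFN, at 394 and 377 CPM after 6 h with DMSO, and at 251 and 259 CPM in isosmotic Nrf2-/- cells. Its 6 h log2 fold change of 0.31 ± 0.14 (SE) with DMSO was not called (edgeR adjusted p = 0.0878), although both 6 h libraries lay above both isosmotic ones. At 6 h with DMSO, 1 of the 14 rose (beside 23.9% of all genes) and 5 fell (beside 22%), with a median of -0.12 beside 0.048 over all genes. The 12 WT libraries gave 5 rises (beside 30.5%) and 6 falls (beside 27.1%). Ppm1d, a phosphatase that is a p53 target and switches p53 signalling off, rose from 27.8 and 27.5 to 96.2 and 88.9 CPM, 1.74 ± 0.11 (SE) (edgeR adjusted p = 2.71e-08). Mdm4, the partner of Mdm2, fell from 117 and 103 to 78.9 and 75.6 CPM, -0.51 ± 0.13 (SE) (adjusted p = 0.00593). The DNA damage kinase genes Prkdc (-0.88) and Chek2 (-0.76) and the ubiquitin ligase gene Rchy1 (-0.50) also fell. With SFN and no stress edgeR and DESeq2 called 0 of the 14, beside 2.84% and 5.44% of all genes. At an unadjusted p under 0.05 edgeR had 1 of the 14, beside 3010 of the 19509 genes. At 1 h with DMSO edgeR called 1 higher, Trp53bp1 (0.31, beside 7.1% of all genes). In the 12 WT libraries 1 was higher and 1 lower with SFN (beside 8.28% and 6.88%), and 5 were higher and 1 lower at 1 h with DMSO (beside 14.3% and 8.53%). In isosmotic Nrf2-/- against WT cells, 4 were higher (beside 15.7% of all genes), Hipk2 (1.09), Prkdc (0.73), Usp7 (0.55) and Mdm4 (0.41), and 2 lower (beside 18.4%), Trp53bp1 (-0.56) and Ppm1d (-0.50). After 1 h of stress 5 were higher and 4 lower in Nrf2-/- cells, beside 31.5% of all genes called in either direction. Trp53 was among those lower, at -0.40 ± 0.14 (SE) (edgeR adjusted p = 0.0416). It was at 281 and 185 CPM in that Nrf2-/- pair, which disagreed, against 310 and 307 CPM in WT.

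Cdkn1a was not the only inhibitor of cyclin-dependent kinases to rise late. Of 6 others, 3 rose (beside 23.9% of all genes) and 0 fell (beside 22%) at 6 h with DMSO, with a median of 0.69 beside 0.048 over all genes. The rises were Cdkn1c (2.06), Cdkn2b (1.22) and Cdkn1b (0.74), with edgeR adjusted p from 7.38e-06 to 0.0153. The 12 WT libraries gave 5 rises (beside 30.5%) and 1 fall (beside 27.1%). Cdkn1c was scarce, at 0.724 and 1.57 CPM after 6 h, and it was at 0 CPM in all 4 Nrf2-/- libraries. With SFN and no stress, edgeR and DESeq2 called 0 of the 6, beside 2.84% and 5.44% of all genes. With 1 h of stress with DMSO they also called 0 of the 6, beside 11.2% and 14.3%. In edgeR 0 of the 6 were under an unadjusted p of 0.05 in either setting, beside 3010 and 4611 of the 19509 genes. Cdkn1a fell in both settings. In the 12 WT libraries 1 of the 6 was higher and 1 lower with SFN (beside 8.28% and 6.88% of all genes). At 1 h with DMSO 0 of the 6 were called there (1 at an unadjusted p under 0.05), beside 22.9% of all genes called. Of 13 genes for partners of Gadd45 proteins and their p38 and JNK kinase cascade, 3 rose (beside 23.9%) and 6 fell (beside 22%) at 6 h with DMSO, with a median of -0.23 beside 0.048 over all genes. The 12 WT libraries gave the counts 3 (beside 30.5%) and 6 (beside 27.1%). In the fit of all 16 libraries these were as follows. The rises were Pcna (0.96), the sliding clamp of DNA replication, and the kinase genes Map2k7 (0.60) and Map2k3 (0.59). Map3k4, whose kinase Gadd45 proteins activate, fell by 1.24 and its substrate gene Map2k6 fell by 1.79 on the log2 scale. Ccnb1, the cyclin of Cdk1, fell by 1.25 on the same scale and Gadd45gip1 was at -0.78, also called. At 1 h with DMSO 1 of the 13 was called lower, Map2k3 (-0.62, beside 4.11% of all genes). With SFN and no stress edgeR called 0 of the 13 (beside 2.84%) and DESeq2 called 1 (beside 5.44%). At an unadjusted p under 0.05 edgeR had 2 of the 13, beside 3010 of the 19509 genes. With the 12 WT libraries 1 was higher and 2 lower at 1 h with DMSO (beside 14.3% and 8.53%), and 2 were lower with SFN and no stress (beside 6.88%). The summed level of the 16 markers of other cell types was 30.4 to 35.002 CPM at 6 h with DMSO and 11.4 to 13.1 CPM without stress. Of the 10 tested, 8 were called higher (beside 23.9% of all genes), and 9 of the 16 stayed under 1 CPM in every library. The part of this in the 6 h results was not tested.

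Genes most like each member were sought by the correlation of log2 CPM over the 8 group means, among genes with a mean of at least 50 counts, as a description over groups that share libraries and controls. For Cdkn1a these were Nr4a1 (0.983), Gprc5a (0.982) and Cdca4 (0.977), Pearson's r in brackets. The first, Nr4a1, and Fosb and Junb below are immediate-early genes. Bbc3 was most like Junb (0.943), Ptger4 (0.933) and Itprip (0.930), and Pmaip1 most like Myl12b (0.985), Fosb (0.984) and Nacad (0.973). The feedback genes were closest to other sets, Mdm2 to Fnbp1l (0.986), Kmt5b (0.974) and Emx2os (0.973) and Trp53inp1 to Fam167a (0.980), Irs1 (0.980) and Psip1 (0.978). Ccng1 was closest to Cops2 (0.996), Ube2q2 (0.995) and Tomm70a (0.995). For the Gadd45 genes the nearest were Rpl7a-ps5 (0.992), Gm15163 (0.950) and Adgrl2 (0.921) for Gadd45a, Enc1 (0.938), Mal2 (0.932) and Gm3571 (0.925) for Gadd45b, and Igtp (0.986), Gm3815 (0.974) and Ptgr2 (0.964) for Gadd45g, and their group means include the 1 h Nrf2-/- pair that disagreed.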

How the data were processed

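RNA-seq was made from 16 libraries of mIMCD3 cells, 2 in each of 8 groups taken from the sample labels. Raw counts per gene, 1 table per library, were deposited by the authors. Among genes with 1 to 10 counts, 58.0% to 68.5% had an even count in each library. The reason was not tested, and small counts of scarce genes are read with that limit. The study's methods name Hisat2 as the aligner, while the submitters' processing notes list Bowtie2, SAMtools, featureCounts and mm10. The annotation and the strand setting are not given in the sources used here, and lines without a gene name were left out.

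Genes were kept by filterByExpr (19509 of 55367) and normalized by TMM in edgeR 4.0.16 (limma 3.58.1, R 4.3.3). A quasi-likelihood fit with robust dispersion and 8 group coefficients gave each comparison as a contrast, and genes were called at a Benjamini-Hochberg adjusted p under 0.05. Differences of stress responses were contrasts of 4 groups. The fit was also run on simulated counts that gave all groups the same spread, so that run does not cover the wider spread of the 1 h Nrf2-/- group. An exact two-sided permutation test of 2 against 2 libraries cannot go below p = 0.333, so none is given.

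The alternatives were no filter on low counts, a floor of 10 counts per library, size factors by RLE, a replicate block, the 12 WT libraries, the groups compared only, DESeq2 1.42.0, and each library left out. The 9 members and all gene lists were chosen with earlier results of these data known. The genes named were the members, Nfe2l2, Trp53, Mdm4, Ppm1d and Sesn2, from each list up to 4 called genes a direction with the largest changes, and the 3 genes most correlated with each member. Markers were named after their values were seen. Gene spans and exon lengths came from GENCODE M21 and promoter windows from RefSeq (GRCm38.p6). Total counts were 34484296 to 50774875 per library. The labels call the libraries replicates. Each p-value sets a difference against 1 estimate of the spread between replicates per gene, shared by all groups in the fit.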

Additional observations from a re-analysis of the deposited data

Results flagged for a closer look

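The stress response differed between SFN- and DMSO-treated WT cells, by edgeR's test of the difference of the log2 fold changes, for 13 results. At 1 h these were 3 of the 9 members and 4 of the 40 other p53 targets, beside 0.559% of all genes called in either direction. At 6 h they were 2 of the 9 and 4 of the 40, beside 0.759%. At 1 h the difference (SFN minus DMSO) was 1.58 for Bbc3, 0.99 for Cdkn1a and 0.68 for Pmaip1. Among the other p53 targets it was 1.79 for Btg2, 1.57 for Gdf15, 1.96 for Lif and 0.96 for Plk2. At 6 h it was 1.12 for Cdkn1a and 0.75 for Pmaip1, and among the other targets 2.08 for Btg2, 2.01 for Lif and 0.90 for Plk2. Sesn2 at 6 h had the opposite sign, at -1.13. All of these contrasts use the same isosmotic libraries. The calls of Bbc3 and Pmaip1 did not survive the loss of any 1 library. Those of the other p53 targets were not followed gene by gene with libraries left out.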

How the results depend on the processing

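Over all alternatives, 1353 log2 fold changes of single members kept their direction and their side of the threshold, 76 lost and 101 gained a call, and 27 changed sign. Counts of calls are not part of this tally. Without a filter on low counts, and beside the share of all genes then called, 4 members were called for 1 h stress with SFN (6.84%), 6 for SFN without stress (3.16%), 4 for Nrf2-/- at 1 h (18.5%), 2 for 1 h stress in Nrf2-/- cells (6.09%), 5 for each of the 1 h and 6 h SFN differences in response (0.735% and 0.887%), and 1 other p53 target for SFN at 1 h (0.12%). With the 12 WT libraries the member counts were 4, 6, 6 and 5 (1 h stress with SFN, SFN without stress, and the 1 h and 6 h differences). The shares of all genes called there were 18.3%, 15.2%, 3.09% and 4.24%. For 1 h stress with DMSO and for SFN at 1 h, 12 and 3 other p53 targets were called (22.9% and 0.533%). With the compared groups only these were 4, 6, 5 and 5 members (15.9%, 7.06%, 2.23% and 2.53% of all genes), 11 and 6 other targets (21.7% and 4.95%), and 0 members for Nrf2-/- at 1 h (10.1%). Without both Nrf2-/- 1 h libraries, a setting chosen after seeing the data, they were 4, 6, 6 and 5 members (17.5%, 14.5%, 3.03% and 3.96% of all genes), 13 and 3 other targets (22.1% and 0.479%), and 8 members for Nrf2-/- without stress (46.4%). DESeq2 called 1 member for the Nrf2-/- difference in response (0.646% of all genes). The cause of these moves was not tested.

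With each library left out (a lone library is assumed to vary like the other groups), and beside the range of the share of all genes called, the members called ranged from 2 to 4 for 6 h stress with DMSO (31.7% to 34.2%), 3 to 5 for 6 h against 1 h (28.6% to 29.5%), 2 to 3 for SFN without stress (0.804% to 1.42%), 2 to 4 for Nrf2-/- without stress (21.1% to 24.9%), 1 to 5 for Nrf2-/- at 1 h (18.6% to 42%), 0 to 5 for 1 h stress in Nrf2-/- cells (2.53% to 23.9%) and for the Nrf2-/- difference (0.0377% to 9.75%), 0 to 1 for the 1 h difference with SFN (0.226% to 0.329%), 1 to 1 for the 6 h difference (0.325% to 0.437%), 5 to 5 for 6 h stress with SFN (33% to 34.8%), 2 to 2 and 1 to 1 for 1 h stress with DMSO (4.45% to 5.94%) and SFN (3.33% to 4.67%), and 0 to 0 for SFN at 1 h (0.0283% to 0.0424%) and 6 h (0.00473% to 0.00946%). The other p53 targets ranged from 2 to 5 for 1 h stress with DMSO, 15 to 18 for 6 h stress with DMSO, 0 to 0 for SFN at 1 h and 17 to 19 for Nrf2-/- without stress.

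Signs also changed as 1 library was left out, with log2 fold changes from the lowest to the highest as follows, and the Nrf2-/- 1 h pair gave both ends of the widest ranges. For 1 h stress in Nrf2-/- cells they were -0.44 to 0.52 for Ccng1, -0.62 to 0.059 for Trp53inp1, -0.54 to 0.21 for Bbc3, -0.076 to 0.17 for Pmaip1, -0.96 to 0.85 for Gadd45a, -0.72 to 1.03 for Gadd45b and -0.52 to 2.30 for Gadd45g. For Nrf2-/- against WT at 1 h they were -0.36 to 0.37 for Bbc3, -0.97 to 0.81 for Gadd45a and -1.51 to 0.22 for Gadd45b, without stress -0.081 to 0.23 for Gadd45b, and for the Nrf2-/- difference in response -0.36 to 0.61 for Ccng1, -0.66 to 0.030 for Trp53inp1, -1.59 to 0.15 for Gadd45b and -2.03 to 0.79 for Gadd45g. For SFN at 6 h they were -0.22 to 0.35 for Trp53inp1, -0.23 to 0.10 for Bbc3 and -0.038 to 0.080 for Pmaip1. For 1 h stress they were -0.015 to 0.043 for Ccng1 and -0.11 to 0.043 for Gadd45b with DMSO and -0.095 to 0.15 for Trp53inp1 with SFN. With at least 10 counts in every library, Gadd45b under 1 h stress with DMSO was at 0.0090.

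The labels number the isosmotic WT SFN libraries 1 and 2 where the deposited files number them 2 and 3. The labels were followed, and the block and the replicates named rest on that. Replicate numbers did not pair the samples: deviations of same-numbered libraries correlated from -0.246 to 0.403 over 28 pairs of groups. With a replicate block, 1 member was called for the 1 h difference with SFN, and Bbc3 (adjusted p = 0.0558) and Pmaip1 (0.0672) were not. Counts over all genes moved by over 1.5 times between settings, from 2186 to 654 and 4334 for 1 h stress with DMSO, from 555 to 171 and 2875 for SFN without stress, from 18 to 6 and 809 for SFN at 1 h, from 8 to 1 and 106 for SFN at 6 h, from 1857 to 535 and 3466 for 1 h stress with SFN, from 6154 to 1651 and 8917 for Nrf2-/- at 1 h, from 1399 to 7 and 5079 for 1 h stress in Nrf2-/- cells, and from 109 to 48 and 585, 148 to 69 and 803 and 24 to 0 and 2072 for the 1 h, 6 h and Nrf2-/- differences in response. RLE size factors moved the median of all genes at 6 h from 0.048 to 0.14 with DMSO and from 0.085 to 0.16 with SFN.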
